A study of Mus musculus with 6 samples.

Results

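Ccl22, Ccl17 and Ccl24 encode CC chemokines that macrophages and dendritic cells make in type 2 immune responses. Ccl17 and Ccl22 are the ligands of the receptor Ccr4 and attract Th2 and regulatory T cells. Ccl24, also called eotaxin-2, is a ligand of Ccr3 and attracts eosinophils. In macrophages all of these genes are known as targets of IL-4 and IL-13, which act through the receptor chain Il4ra, the kinases of the Jak family and the transcription factor Stat6, with Irf4 among the factors downstream. They were taken from the mRNA table by their symbols and are 3 of its 41549 genes.

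The cells were wild-type bone marrow-derived macrophages (BMDMs) of C57Bl/6N mice, aged 10 to 12 weeks by the methods and 12 to 14 weeks by the reporting summary, grown with M-CSF for 7 days. As naïve cells they received a locked nucleic acid antisense oligonucleotide and were then exposed for 48 h to IL-4 plus IL-13, the cytokines of M2 polarization. In the αGlu group (3 libraries) the antisense was directed at 5′tRF-Glu(CTC), a piece of the 5′ part of a tRNA that carries glutamate, and in the Ctr group (3 libraries) it was a control antisense. The comparison asks how these M2 cells differ when the fragment is blocked. Both groups carried an oligonucleotide, lipofectamine and both cytokines, and no untransfected or unpolarized library was analysed here. The methods describe independent experiments, but the labels do not say which mice gave which library, so p-values measure the spread between these libraries.

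Total exon counts lay between 17912831 and 30386653 per library. Across the 11933 genes tested, αGlu 1 stood apart from αGlu 2 and αGlu 3, with a Pearson r of log2 CPM (read counts scaled to the size of the library) of 0.929 to each of them, against 0.992 between those libraries. Its r to the Ctr libraries was 0.966 to 0.982. Results of the 3 chemokines, and of other genes where it matters, are therefore given with and without αGlu 1. Calls required a change of more than 2-fold with an adjusted p under 0.1. With all 6 libraries, the edgeR quasi-likelihood test with Benjamini-Hochberg adjustment called 0 of the 11933 genes (0%), while 2943 had an unadjusted p under 0.05. The calls numbered 1119 with DESeq2, 899 with edgeR's likelihood-ratio test and 0 with limma-voom. The median log2 fold change of all genes tested was 0.02.

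Ccl22 and Ccl17 lie on the same strand of chromosome 8, and both genes were lower in αGlu. Their promoters are shown, whereas the promoter set used here had no entry for Ccl24. On the GRCm38 build, Ccl22 (ENSMUSG00000031779) spans chr8:94745590-94751699 on the plus strand with 4 exons, and Ccl17 (ENSMUSG00000031780) spans chr8:94810453-94812036 on the plus strand with 3 exons. Ccl24 (ENSMUSG00000004814) is on another chromosome, at chr5:135569937-135573049 on the minus strand, with 4 exons. No annotated gene overlaps any of the 3. The 250 bases before the RefSeq start are given below for Ccl22 (chr8:94745434-94745683, plus strand) and Ccl17 (chr8:94810203-94810452, plus strand), 5′ to 3′, from RefSeq on GRCm38.p6. The RefSeq start of Ccl22 lies downstream of the GENCODE start used for the gene's span. Capitals mark the matches to the STAT6 motif (TTCNNNNGAA) and to the general STAT motif (TTCNNNGAA).
Ccl22: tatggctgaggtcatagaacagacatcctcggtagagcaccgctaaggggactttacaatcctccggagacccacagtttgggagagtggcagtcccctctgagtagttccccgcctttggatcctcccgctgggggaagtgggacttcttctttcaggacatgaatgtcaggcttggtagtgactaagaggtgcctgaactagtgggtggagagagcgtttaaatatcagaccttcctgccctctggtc
Ccl17: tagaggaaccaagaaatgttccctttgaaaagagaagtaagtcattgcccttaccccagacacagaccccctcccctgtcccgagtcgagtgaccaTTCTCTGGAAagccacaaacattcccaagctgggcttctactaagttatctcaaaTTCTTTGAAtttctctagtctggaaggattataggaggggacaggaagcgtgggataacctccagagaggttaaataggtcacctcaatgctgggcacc

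The Ccl17 window held 1 match to the STAT6 motif, TTCTCTGGAA at positions -154 to -145 from the start, and 1 match to the STAT motif, TTCTTTGAA at -99 to -91. The Ccl22 window held neither. Both strands were searched, and the motifs occurred in 5.85% and 7.02% of 32851 promoter windows of the same length. The PU.1-IRF composite motif (GGAANNGAAA, 2.3% of windows), the AP-1 motif (TGANTCA, 6.75%), the NF-kB motif (7.25%) and the TATA box (TATAAA, 12.4%) had no match in either window. These are letter matches and no binding was measured.

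Ccl22 was the member with the most reads in Ctr, and its level was lower in every αGlu library. Ctr 1, 2 and 3 held 287, 229 and 237 reads of Ccl22, which are 13, 9.57 and 11 CPM. αGlu 1, 2 and 3 held 43, 51 and 27 reads, which are 2.47, 1.61 and 0.99 CPM. The groups did not overlap, and the lowest Ctr library was 3.88-fold above the highest αGlu library. The mean was 11.2 ± 1.74 CPM in Ctr and 1.69 ± 0.741 CPM in αGlu (SD, n = 3), or 14.6 ± 2.52 and 2.3 ± 0.948 TPM, the deposited level per transcript length.

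The log2 fold change of Ccl22, αGlu over Ctr, was -2.75 ± 0.34 (SE), with an unadjusted p of 0.000195 and an adjusted p of 0.149 by edgeR's quasi-likelihood test. That adjusted p was the smallest in the table, and 8 genes had a smaller unadjusted p. A total of 96 genes had a lower log2 fold change. Ccl22 was called by DESeq2 (adjusted p = 4.64e-11), and without αGlu 1 it fell by 3.10 ± 0.26 on the log2 scale (quasi-likelihood adjusted p = 0.00032). Summed over libraries, 753 reads stood against 121. Scaled to the summed TMM-scaled library sizes, Ctr exceeded αGlu by 7.05-fold, where counting error alone allows 5.81 to 8.62 (exact 95% interval). Ccl22 is among the genes the study displays from these same libraries, so its direction here is not independent evidence.

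Ccl17 was also lower in every αGlu library, at much lower counts. Ctr 1, 2 and 3 held 21, 7 and 11 reads of Ccl17, which are 0.954, 0.293 and 0.51 CPM. αGlu 1 and αGlu 2 held 2 and 4 reads, which are 0.115 and 0.126 CPM, and αGlu 3 held 0 reads, which allows up to 0.11 CPM at 3 reads. The lowest Ctr library was 2.32-fold above the highest αGlu library. Per transcript length, Ccl17 had 3.46 ± 2.05 TPM in Ctr and 0.492 ± 0.429 TPM in αGlu (SD, n = 3).

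With so few reads Ccl17 did not pass the low-count filter, and its fit comes from the 17915 genes tested without that filter. Its log2 fold change was -2.81 ± 0.89 (unadjusted p = 0.0159, quasi-likelihood adjusted p = 0.187). In that fit 0 genes (0%) were called and 3502 had an unadjusted p under 0.05. DESeq2 called Ccl17 (log2 fold change -2.90, adjusted p = 0.0583). Without αGlu 1 the gene passed the filter and fell by 3.03 ± 0.96 on the log2 scale (adjusted p = 0.0481). The summed reads, 39 in Ctr and 6 in αGlu, were scaled to the summed TMM-scaled library sizes. They gave a ratio of αGlu to Ctr of 0.136 with an exact 95% interval of 0.047 to 0.323.

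Ccl24 went the other way in αGlu 2 and αGlu 3 but not in αGlu 1. Ctr 1, 2 and 3 held 14, 6 and 13 reads of Ccl24, which are 0.636, 0.251 and 0.603 CPM. αGlu 1 held 4 reads (0.229 CPM), fewer than any Ctr library, while αGlu 2 held 288 reads (9.07 CPM) and αGlu 3 held 442 reads (16.2 CPM). The groups therefore overlapped. The exact 95% binomial interval of αGlu 1 was 0.0608 to 0.572 CPM before TMM scaling, below the 8.41 to 10.6 of αGlu 2 and the 15.8 to 19 of αGlu 3. Per transcript length, Ccl24 had 1.16 ± 0.509 TPM in Ctr and 21.4 ± 20.3 TPM in αGlu (SD, n = 3).

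The log2 fold change of Ccl24 was 4.10 ± 1.30 (unadjusted p = 0.0198, quasi-likelihood adjusted p = 0.162), and 48 genes had a higher one. DESeq2 called Ccl24 higher (adjusted p = 0.0059). By limma-voom with all libraries its log2 fold change was 3.29, with an unadjusted p of 0.207 (adjusted p = 0.375). Without αGlu 1 Ccl24 rose by 4.67 ± 0.40 on the log2 scale (quasi-likelihood adjusted p = 0.000361). The spread of Ccl24 in αGlu, an SD of 8.01 CPM around a mean of 8.5 CPM, came from αGlu 1 on one side and αGlu 2 and 3 on the other.

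**Figure D1:**
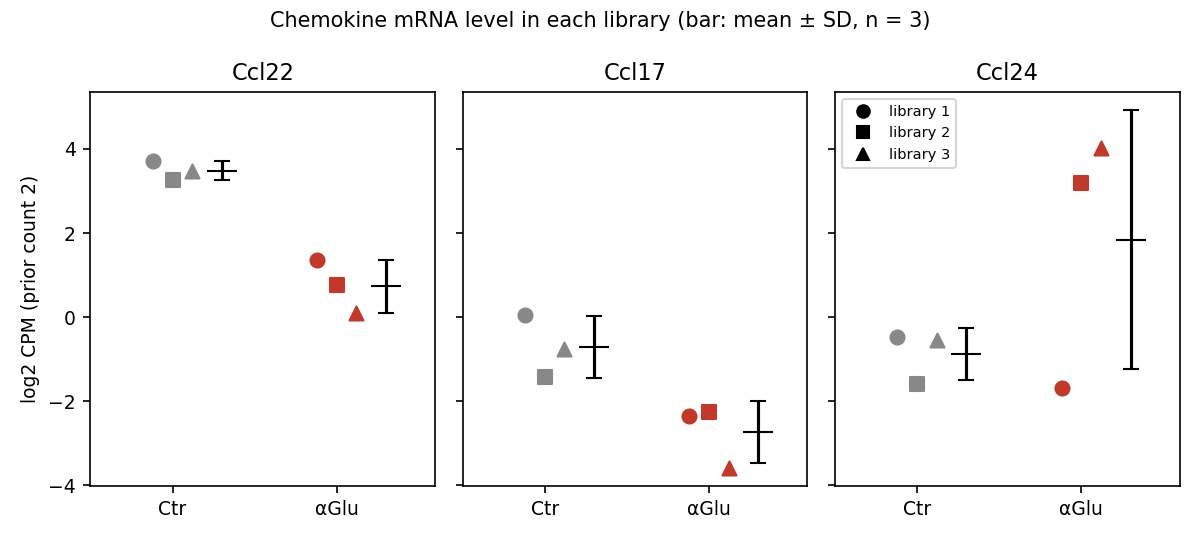
The level of each chemokine in log2 CPM (prior count 2) in each of the 6 libraries, Ctr in grey and αGlu in red, with the marker shape giving the library number and the bar the mean ± SD (n = 3). Ccl22 and Ccl17 were lower in every αGlu library, whereas Ccl24 was high in αGlu 2 and 3 and not above Ctr in αGlu 1.

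Among the 3 chemokines, the all-library quasi-likelihood test called none. DESeq2 called 2 lower, where it called 3.93% of 13707 genes lower, and 1 higher, where it called 4.23% higher. Without αGlu 1 the quasi-likelihood test called 2 lower, against 10.5% of 12340 genes, and 1 higher, against 8.05%. Ccl22 did not overlap between groups and was lower in αGlu, as were 15.9% of the genes tested, and every αGlu library was higher for 14.2%. Without the low-count filter, which is the set that holds Ccl17, 12.6% did not overlap and were lower.

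**Figure D2:**
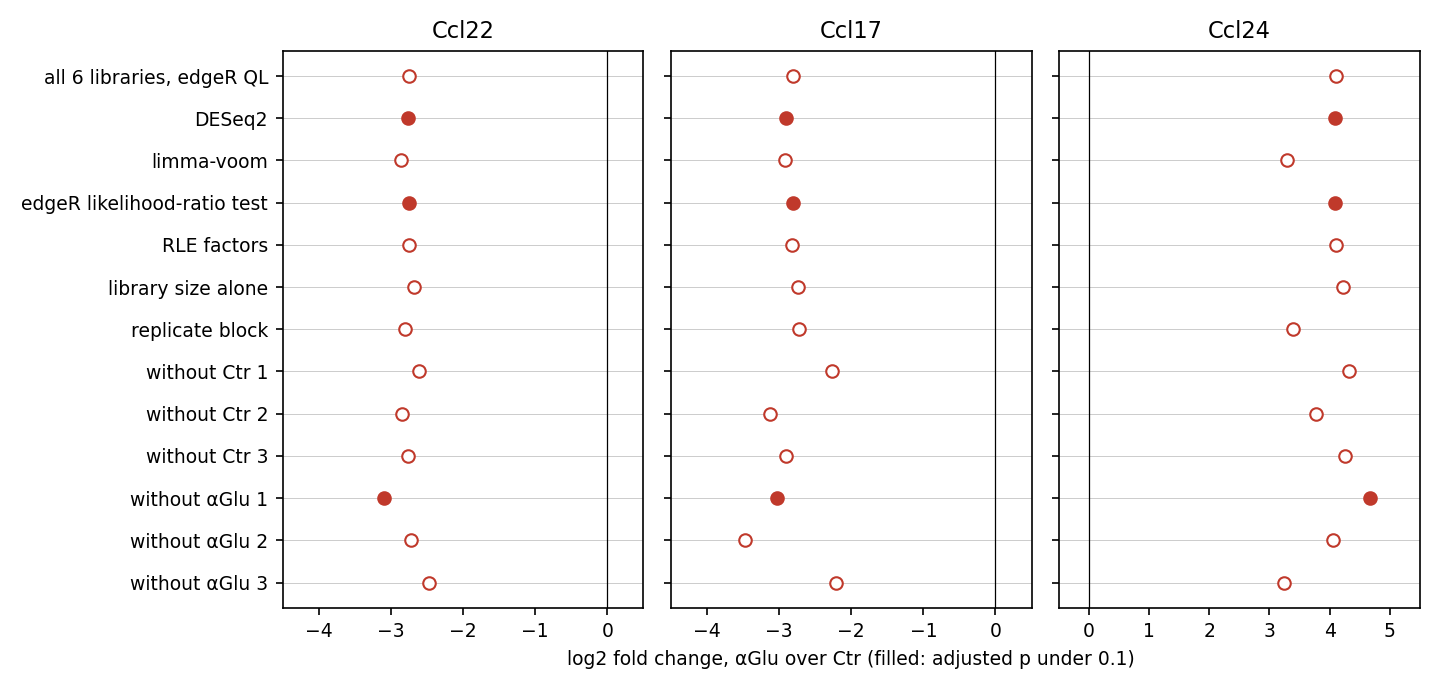
The log2 fold change of Ccl22, Ccl17 and Ccl24, αGlu over Ctr, for the quasi-likelihood fit of all libraries, other tools and scalings, the replicate block and each library left out (Ccl17 without the low-count filter except by DESeq2). Filled points have an adjusted p under 0.1, which each gene had with DESeq2, the likelihood-ratio test and the fit without αGlu 1. No point crosses 0.

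Ratios between the chemokines within a library depend on the scaling of libraries only through the prior count, which matters where reads are few. They were compared with two-sided exact permutation tests, which cannot go below p = 0.1 with 3 libraries against 3, and adjusted over the 3 ratios. The log2 ratio of Ccl17 to Ccl22 averaged -4.19 ± 0.51 in Ctr against -3.46 ± 0.39 in αGlu (SD, n = 3), a difference of 0.73 with an exact p of 0.3 (adjusted p = 0.3). The difference changed sign with a smaller prior count, to -0.07, and with TPM, to -0.27. A difference between the fold changes of Ccl17 and Ccl22 was not detectable at this depth.

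The log2 ratio of Ccl24 to Ccl22 separated the groups. It was -4.19, -4.85 and -4.01 in Ctr and -3.03, 2.44 and 3.92 in αGlu, a difference of 5.46 (exact permutation p = 0.1, adjusted p = 0.15, the smallest raw p this design allows). In αGlu 2 and αGlu 3 the order of both genes was turned, with more Ccl24 than Ccl22. The log2 ratio of Ccl24 to Ccl17 was -0.53, -0.17 and 0.21 in Ctr and 0.66, 5.45 and 7.61 in αGlu, a difference of 4.74 (exact permutation p = 0.1, adjusted p = 0.15). With 2 and 0 reads of Ccl17 in αGlu 1 and αGlu 3, the size of this ratio there is set by the prior count, and the difference was 5.66 with a prior count of 0.5 and 5.79 with TPM. The Ccl24 to Ccl22 ratio, which rests on more reads, was higher in αGlu 1 than in any Ctr library. Ccl22 was lower in αGlu 1, and Ccl24 was not above its Ctr level there.

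Over the 6 libraries, log2 CPM of Ccl17 and Ccl22 correlated at a Pearson r of 0.94. Ccl24 correlated with Ccl22 at -0.75 and with Ccl17 at -0.63. These values are descriptions over 6 points that share the split into 2 groups, and they carry no test.

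The gene between Ccl22 and Ccl17 was lower as well. Cx3cl1, which encodes the membrane-bound chemokine fractalkine, starts 26.4 kb from Ccl22, and Ccl17 starts 64.9 kb from it. Cx3cl1 had 34, 11 and 14 reads in Ctr and 4, 3 and 1 reads in αGlu, so the groups did not overlap. Its log2 fold change was -2.96 ± 0.76 (quasi-likelihood adjusted p = 0.156, DESeq2 adjusted p = 0.0205), and without αGlu 1 it fell by 3.62 on the log2 scale (adjusted p = 0.016).

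Beyond these 3 chemokine genes the changes were small. On the Ccl22 side, Arl2bp, which starts 79.0 kb away, had a log2 fold change of 0.15 ± 0.17, and Pllp had 1 read in all. On the Ccl17 side, the log2 fold change was -0.15 ± 0.08 for Coq9, a coenzyme Q biosynthesis gene, and -0.09 ± 0.09 for Ciapin1. Coq9 was lower in every αGlu library all the same.

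Ccl24 stood apart from its neighbours on chromosome 5. Ccl26, another eotaxin gene, starts 9.5 kb away and had 0 reads in all 6 libraries. Hip1, at 27.9 kb, was lower in every αGlu library, with a log2 fold change of -0.71 ± 0.24 (quasi-likelihood adjusted p = 0.172). Rhbdd2 and Por, on the other side, had log2 fold changes of 0.10 ± 0.12 and -0.43 ± 0.35. Without αGlu 1 the log2 fold change was -0.95 for Hip1 (quasi-likelihood adjusted p = 0.00747) and -0.96 for Por (adjusted p = 0.000668). Both were just short of a 2-fold change.

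**Figure D3:**
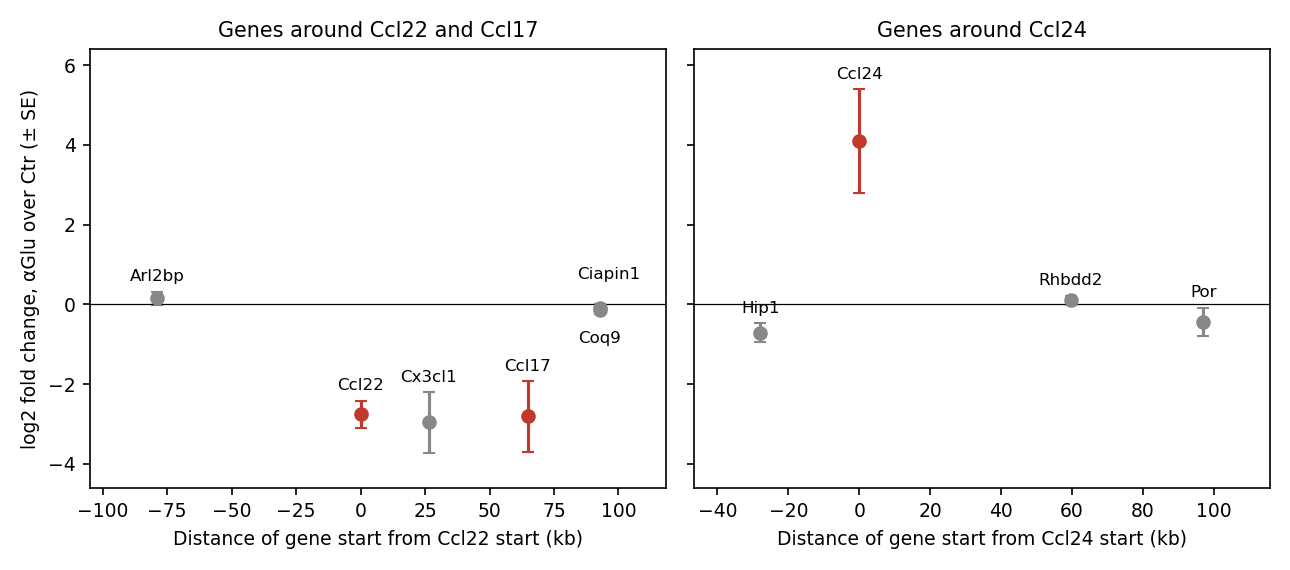
Log2 fold change (αGlu over Ctr, ± SE) of protein-coding genes against the distance of their start from the start of Ccl22 (left) or Ccl24 (right), in kb, with the members in red and their neighbours in grey. Ccl22, Cx3cl1 and Ccl17 lie between -2.75 and -2.96, and the neighbours of Ccl24 between -0.71 and 0.10. Pllp and Ccl26, with at most 1 read, are left out.

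Transcripts of the receptors were mostly missing from these cells. Ccr4, the receptor of Ccl17 and Ccl22, had 0 reads in all 6 libraries, and so had Ackr2, a scavenging receptor of inflammatory CC chemokines. Ccr3, the receptor of Ccl24, had 10, 11.8 and 12 CPM in Ctr against 4.13, 11.9 and 21.2 CPM in αGlu. The groups overlapped and the log2 fold change of Ccr3 was 0.14 ± 0.53 (quasi-likelihood adjusted p = 0.874), which turned negative under the replicate block and without αGlu 3. Within αGlu, Ccr3 and Ccl24 had the same order, lowest in αGlu 1 and highest in αGlu 3. Dpp4, a peptidase that trims CC chemokines including Ccl22, had 2, 0 and 6 reads in Ctr and 2, 0 and 0 in αGlu, and Ackr1 had at most 1 read in any library.

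The chemokines' own levels can be set against the other CC chemokine genes, by TPM, which is a level per length. The table holds 24 genes named Ccl and a number, of which 17 had a read. In Ctr 1, 2 and 3, Ccl22 ranked 4, 9 and 9 among them, with 17.3, 12.3 and 14.1 TPM. In αGlu 1, 2 and 3 it ranked 10, 11 and 12, with 3.29, 2.21 and 1.4 TPM. Ccl24 ranked 12, 14 and 13 in Ctr, and 14, 10 and 10 in αGlu. Ccl17 ranked 9, 11 and 11 in Ctr and 12, 14 and 15 in αGlu, the last of these with no read.

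The 3 type 2 chemokines made up 1.72%, 0.891% and 1.08% of the summed CC chemokine TPM in Ctr, and 0.165%, 0.432% and 0.548% in αGlu. Each share in αGlu was below each share in Ctr. The TPM of the 3 members together did not show this order, as it was 24.5, 14.5 and 18.5 in Ctr and 4.53, 25.4 and 42.5 in αGlu, where αGlu 2 and 3 lay above every Ctr library. The summed TPM of all CC chemokines was 1425, 1631 and 1716 in Ctr and 2755, 5888 and 7771 in αGlu. Thus even αGlu 1, where Ccl24 was low, had a higher CC chemokine total than any Ctr library.

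Of the other 21 CC chemokine genes, 11 were tested. The all-library quasi-likelihood test called 0 of them, DESeq2 called 5 higher and none lower (4.23% and 3.93% of all genes), and without αGlu 1 the quasi-likelihood test called 5 higher and 2 lower (8.05% and 10.5%). Their median log2 fold change was 0.91, against 0.02 for all genes. Ccl5 had 3.59, 7.86 and 13.5 CPM in Ctr and 274, 1090 and 1031 CPM in αGlu, which is 6.59 ± 0.83 as a log2 fold change (quasi-likelihood adjusted p = 0.149, and 0.07 with the replicate number as a block, where it was called). The monocyte chemoattractants Ccl8, Ccl7, Ccl12 and Ccl2, which bind Ccr2 or related receptors, had log2 fold changes of 6.12 ± 1.22, 4.62 ± 1.19, 4.30 ± 1.16 and 2.70 ± 0.82.

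Like Ccl24, these monocyte chemoattractants were lowest in αGlu 1 and highest in αGlu 3 within the αGlu group. Unlike Ccl24, Ccl5, Ccl7, Ccl8, Ccl12 and Ccl4 were higher in every αGlu library than in any Ctr library, αGlu 1 included. These are 5 of the 11 other CC chemokines tested, against 14.2% of all genes tested. Ccl4 had the smallest log2 fold change of these, 0.91 ± 0.44. Lower levels were seen for Ccl6 and Ccl9, the most abundant CC chemokines in Ctr, in αGlu 2 and 3. Ccl6 had 509, 492 and 520 CPM in Ctr and 578, 59.6 and 60.3 CPM in αGlu, and without αGlu 1 it fell by 3.08 on the log2 scale (quasi-likelihood adjusted p = 1e-05). Ccl22 and Ccl17 differed from Ccl6 in that they were lower in αGlu 1 too.

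**Figure D4:**
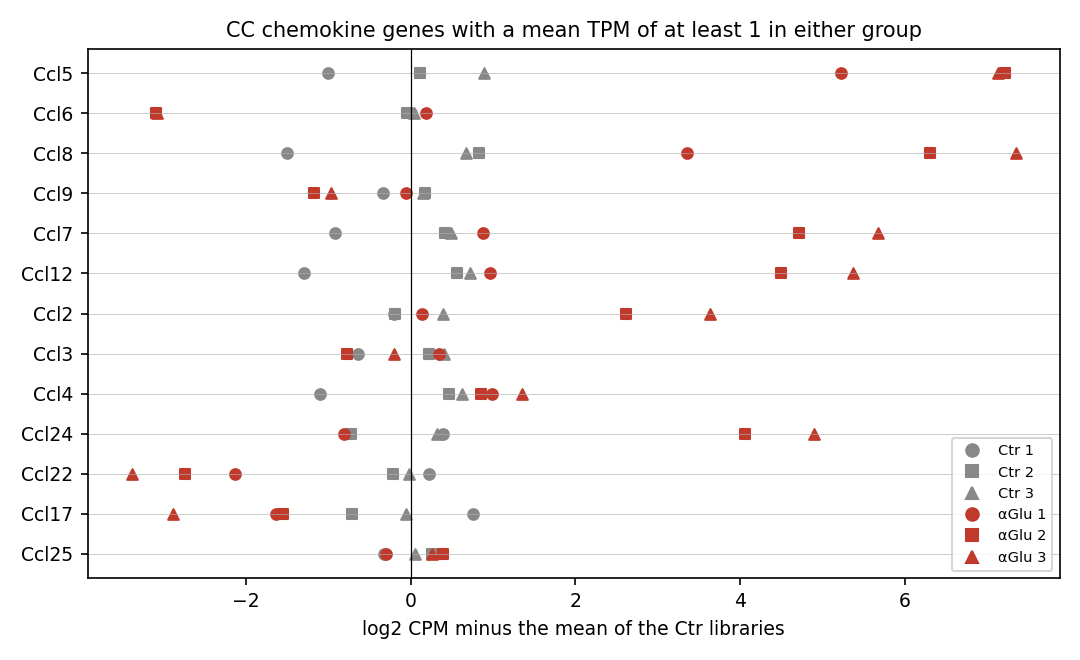
Log2 CPM of each CC chemokine gene with a mean of at least 1 TPM in either group, minus the mean of the Ctr libraries, for each library (Ctr grey, αGlu red, marker shape for the library number). Ccl22 and Ccl17 are the genes whose 3 αGlu libraries all lie below the 3 Ctr libraries, and Ccl24 has αGlu 2 and 3 to the right of all Ctr libraries with αGlu 1 just left of them.

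Il4ra, Socs1 and Jak3, which signal for or restrain IL-4 and IL-13, were higher in every αGlu library and highest in αGlu 2 and αGlu 3. Of 12 genes on this list 11 were tested, and the all-library quasi-likelihood test called 0 of them. DESeq2 called 4 higher and 0 lower, against 4.23% and 3.93% of all genes. Without αGlu 1 the counts were 5 and 0, against 8.05% and 10.5%. With 11 genes, a count of 0 lower is near these shares. Their median log2 fold change was 0.45, with 8 genes above 0 and 3 below. Without overlap, 4 were higher in αGlu (Il4ra, Socs1, Jak3 and Il13ra1) and 0 lower, against 14.2% and 15.9% of all genes tested. Il13ra1 was not highest in αGlu 2 and αGlu 3, with 19.7, 22.2 and 17 CPM in αGlu 1, 2 and 3. Il4ra, the receptor chain shared by IL-4 and IL-13, had 62.7, 61.1 and 66.3 CPM in Ctr and 78.2, 510 and 643 CPM in αGlu, or 2.70 ± 0.73 as a log2 fold change (quasi-likelihood adjusted p = 0.157). Without αGlu 1 it rose by 3.18 on the log2 scale (adjusted p = 2.61e-05).

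Il4ra and Ccl24 thus shared the high αGlu 2 and αGlu 3, although Il4ra was above Ctr in αGlu 1 and Ccl24 was not. Socs1, a feedback inhibitor of Jak kinases, had a log2 fold change of 1.83 ± 0.45, and Jak3, the kinase bound to the common gamma chain, one of 1.13 ± 0.30, both without overlap. Stat6 had 257, 278 and 256 CPM in Ctr and 279, 264 and 257 CPM in αGlu, with a log2 fold change of 0.02 ± 0.09. The log2 fold change was 1.24 ± 0.39 for Il2rg, the common gamma chain, and 0.45 ± 0.20 for Il13ra1. Without αGlu 1, Socs1 (2.20), Jak3 (1.41) and Il2rg (1.55) were called and Il13ra1 (0.44) and Stat6 (-0.02) were not.

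Of 10 transcription factor genes known from macrophages and dendritic cells, 7 were lower in every αGlu library and 1 was higher in every one, and their median log2 fold change was -1.03. Over all genes tested, 15.9% were lower and 14.2% higher without overlap. The all-library quasi-likelihood test called 0 of them. DESeq2 called 3 lower and 2 higher (3.93% and 4.23% of all genes), and without αGlu 1 the quasi-likelihood test called 6 lower and 2 higher (10.5% and 8.05%). Irf4, which acts downstream of IL-4 and GM-CSF, had 30.3, 26.9 and 25.3 CPM in Ctr and 8.95, 2.05 and 1.54 CPM in αGlu. Its log2 fold change was -2.76 ± 0.68 (quasi-likelihood adjusted p = 0.156), beside -2.75 for Ccl22 and -2.81 for Ccl17. Without αGlu 1 these values drew apart, to -3.93 for Irf4 (adjusted p = 2.91e-05), -3.10 for Ccl22 and -3.03 for Ccl17.

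Irf4, Ccl22 and Ccl17 were all lowest in αGlu 3, and Irf4 and Ccl22 were both least reduced in αGlu 1. The log2 fold change was -2.28 ± 0.77 for Myc, -1.28 ± 0.41 for Batf3 and -0.87 ± 0.22 for Klf4, which IL-4 is known to induce in macrophages. Relb, a subunit of NF-kB, was the gene higher in every αGlu library, with a log2 fold change of 1.71 ± 0.49. Without αGlu 1 all 4 were called, at -3.71 for Myc, -1.90 for Batf3, -1.13 for Klf4 and 2.10 for Relb.

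Other genes known as IL-4 and IL-13 targets in macrophages were also found on both sides. The all-library quasi-likelihood test called 0 of them. Of 17 on that list 14 were tested, with a median log2 fold change of 0.32. DESeq2 called 4 higher and 1 lower (4.23% and 3.93% of all genes), and without αGlu 1 the quasi-likelihood test called 7 higher and 4 lower (8.05% and 10.5%). Mgl2, a galactose-type lectin, was on the side of Ccl22, with 87.9, 66.3 and 83.9 CPM in Ctr and 10.6, 0.504 and 2.35 CPM in αGlu (log2 fold change -4.22 ± 0.98, quasi-likelihood adjusted p = 0.156). Without αGlu 1 it fell by 5.85 on the log2 scale (adjusted p = 0.00032).

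On the side of Ccl24 were Arg1, which breaks down arginine, and the chitinase-like gene Chil4. Arg1 had 24.3, 45.2 and 41.5 CPM in Ctr and 23.5, 1886 and 1792 CPM in αGlu, so that αGlu 1 lay below every Ctr library as it did for Ccl24. Its log2 fold change was 5.06 ± 1.46 (quasi-likelihood adjusted p = 0.159). Chil4 had a log2 fold change of 2.93 ± 0.72, with every αGlu library above Ctr. The arginine transporter gene Slc7a2 had one of 1.63 ± 0.51, and Tgm2 one of 0.83 ± 0.33. Without αGlu 1 all 4 were called, at 5.63 for Arg1, 3.39 for Chil4, 2.03 for Slc7a2 and 1.10 for Tgm2.

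GM-CSF is another known inducer of Ccl17 and Ccl22 in myeloid cells. Of its 5 receptor and signalling genes tested, 0 were called by any of the quasi-likelihood fit of all libraries, DESeq2 and the fit without αGlu 1. Over all genes the shares were 0%, then 3.93% lower and 4.23% higher, then 10.5% and 8.05%. With 5 genes, a count of 0 is near these shares. Csf2ra, the ligand-binding receptor chain, was lower in every αGlu library, as were 15.9% of all genes tested, with a log2 fold change of -0.67 ± 0.21. The shared chain Csf2rb and its paralog Csf2rb2, whose near-identical reads may be split between them, had log2 fold changes of -0.10 ± 0.15 and -0.21 ± 0.18. Stat5a and Stat5b had 0.05 ± 0.11 and 0.02 ± 0.08.

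**Figure D5:**
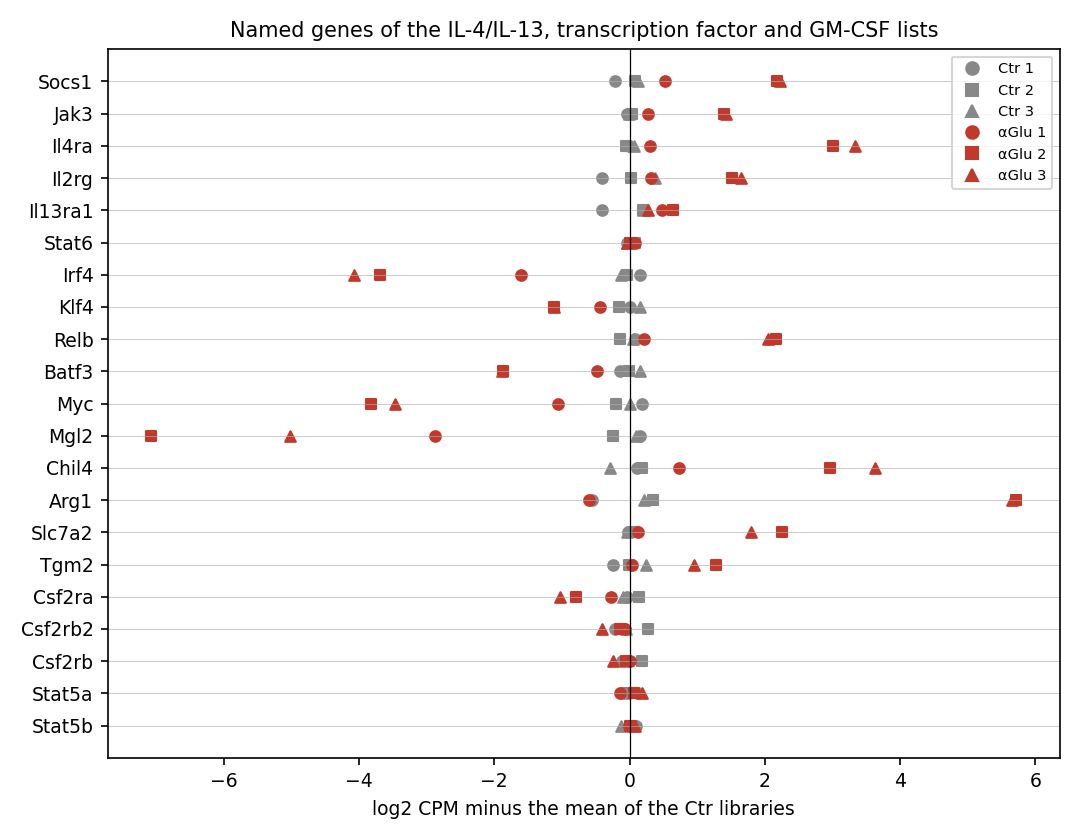
Log2 CPM minus the mean of the Ctr libraries for named genes of the IL-4/IL-13 signalling, transcription factor, IL-4/IL-13 target and GM-CSF lists (Ctr grey, αGlu red, marker shape for the library number). For Irf4 and Mgl2 all αGlu libraries are left of Ctr, as for Ccl22, and for Arg1 αGlu 2 and 3 are far right with αGlu 1 just left of the Ctr libraries, as for Ccl24.

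The genes whose profiles were most like each chemokine were named by Pearson r of log2 CPM over the 6 libraries. They were sought among 9932 tested genes averaging at least 1 log2 CPM, without the members and unnamed gene models. For Ccl22 they were Car5b, a mitochondrial carbonic anhydrase (r = 0.9977), Pdgfb, a growth factor (0.9958), Cip2a (0.9942), Mcm10, a DNA replication factor (0.9934), and Dap (0.9931). All 5 were lower in every αGlu library, with log2 fold changes of -1.52 ± 0.19 for Car5b and -2.02 ± 0.33 for Pdgfb. Over all genes tested, 15.9% were lower without overlap. The 5 were picked for likeness to Ccl22 over these same libraries, so their order between groups follows from that choice. With 6 points such values are common, since 223 genes had an r of at least 0.95 with Ccl22.

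For Ccl17 the nearest profiles were those of Slc16a1, a lactate transporter (r = 0.9930), Qser1 (0.9908), Timm50 (0.9898), Cdc45 (0.9891) and Tradd (0.9875), and 53 genes had an r of at least 0.95. For Ccl24 they were Oxsr1 (0.9986), Picalm (0.9981), Commd10 (0.9979), Spred1 (0.9976) and Pid1 (0.9974), and 506 genes reached 0.95. The genes like Ccl24 overlapped between groups as it did, which follows from how they were picked. Their log2 fold changes, 0.14 to 0.79 (0.23 to 1.10 without αGlu 1), were smaller than that of Ccl24.

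Macrophage marker genes were present in every library. All 8 (among them Adgre1, Cd68 and Csf1r) had a mean above 1 CPM over the 6 libraries. Their sum was 11849 to 13404 CPM in Ctr and 12594 to 18784 CPM in αGlu. Lyz2 was the largest part, and without it the sums were 6155 to 6406 CPM and 6082 to 7719 CPM. The members did not move together. Cd68 had 1809, 2063 and 2049 CPM in Ctr and 1990, 1237 and 1144 CPM in αGlu. Adgre1 had 886, 822 and 992 CPM in Ctr and 896, 1372 and 1595 CPM in αGlu. In bulk libraries, fewer cells of a type and less RNA per cell cannot be told apart. Dendritic cells are another source of Ccl17 and Ccl22. None of 8 dendritic cell markers had a mean above 1 CPM over the 6 libraries (Clec9a averaged 1.06 CPM in Ctr), Xcr1 was at 0 and Flt3 close to it, and their sum was 2.37 to 2.45 CPM in Ctr and 1.47 to 1.84 CPM in αGlu.

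The summed eosinophil and neutrophil markers also separated the groups, each through 1 gene. Of 6 eosinophil markers 1 had a mean above 1 CPM, Siglecf, with 8.72, 6.81 and 13.1 CPM in Ctr and 3.67, 0.252 and 0.147 CPM in αGlu. The defining eosinophil gene Epx was at most 0.287 CPM, and the list summed to 8.15 to 13.5 CPM in Ctr and 0.183 to 4.76 CPM in αGlu. The 8 neutrophil markers summed to 106 to 159 CPM in Ctr and 186 to 609 CPM in αGlu, nearly all from Csf3r, while Ly6g was at 0. The sums overlapped between groups without Siglecf (0.227 to 1.34 CPM in Ctr, 0.0367 to 1.09 CPM in αGlu) and without Csf3r (1.21 to 4.81 CPM in Ctr, 1.43 to 2.64 CPM in αGlu). The part of these cell types in the levels of Ccl22, Ccl17 and Ccl24 was not tested.

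The remaining lists overlapped between groups. The 8 lymphocyte markers summed to 17.9 to 30.9 CPM in Ctr and 18.4 to 21.4 CPM in αGlu, nearly all from Cd4, with Cd3g, Trac and Nkg7 at 0. The 6 fibroblast markers summed to 2.01 to 7.95 CPM in Ctr and 2.05 to 3.15 CPM in αGlu. The 6 mast cell and basophil markers summed to 1.73 to 2.72 CPM in Ctr and 0.88 to 4.82 CPM in αGlu, with the highest value in αGlu 1 and Tpsb2 at 0.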

How the data were processed

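Polyadenylated RNA of 6 M2 BMDM libraries (3 Ctr, 3 αGlu, grouped by the library names in the labels) was sequenced from stranded libraries on an Illumina instrument. Reads went through the QIAGEN RNA-seq Analysis Portal. The build, GRCm38, is from the submitters' processing notes, while aligner, annotation and multi-mapping rules are not given in the sources used here. The authors deposited whole-number read counts over the exons of 41549 genes without normalization. The deposited TPM values, scaled by length, were used for levels between genes. The deposited RPKM values and a further deposited signal per effective library size were not used. Spans and neighbours are from GENCODE M21. Promoters are from a set built on RefSeq starts, and the set used here held 2 of the 3 members.

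Low counts were removed with filterByExpr (minimum count 10, minimum total 15), and edgeR 4.0.16 in R 4.3.3 fitted its quasi-likelihood model with TMM factors and the group alone. P-values are two-sided and Benjamini-Hochberg adjusted over all genes tested, and calls needed more than a 2-fold change with an adjusted p under 0.1. CPM uses TMM-scaled library sizes, and log2 CPM a prior count of 2. Ccl17 did not pass the filter and was taken from the fit without it, as were Ackr1, Dpp4 and Pllp. Intervals and floors (3 reads) cover counting error only. Ratios were compared with exact permutation tests in scipy 1.17.1. The scripts were tested on simulated counts.

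Named were the members, their receptors and modifiers, the 5 genes with the smallest unadjusted p of each of 4 pathway lists plus Il4ra, Stat6 and Irf4, each Ccl gene with a mean of at least 1 TPM in either group, the 5 genes most like each member, and the 2 neighbours on each side. Neighbours were limited to protein-coding genes, and like genes to those other than unnamed gene models, after the data had been seen. The members and lists were chosen with earlier results of these data known. Alternatives were DESeq2 1.42.0, limma-voom (limma 3.58.1), the edgeR likelihood-ratio test, RLE factors, other low-count filters, library size alone, another prior count, TPM ratios, the replicate number as a block, and each library left out.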

Additional observations from a re-analysis of the deposited data

How the results depend on the processing

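Ccl22, Ccl17 and Ccl24 kept their direction under every alternative run, and with all libraries their calls depended on the tool. The log2 fold changes were -2.76 (Ccl22), -2.90 (Ccl17) and 4.09 (Ccl24) with DESeq2, and -2.75, -2.81 and 4.09 with the likelihood-ratio test, all called, and the genes called in the table were 1119 and 899. With each library left out, the values ran from -3.1 to -2.47 for Ccl22, -3.47 to -2.21 for Ccl17 and 3.24 to 4.67 for Ccl24, and the genes called from 0 to 2290. The calls came without αGlu 1 (-3.10, -3.03 and 4.67, with 2290 genes called), and the cause was not tested. Adjusted p over all alternatives ranged from 4.64e-11 to 0.427 for Ccl22, 0.0251 to 0.459 for Ccl17 and 0.000361 to 0.428 for Ccl24. Ccl24 has no value with the filter of 1 CPM in 3 libraries. The alternatives for Ccl17 without the low-count filter were chosen after seeing the data.

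The difference in the Ccl17 to Ccl22 ratio reversed to -0.07 with a prior count of 0.5 and to -0.27 with TPM. With each library left out it was 0.48 to 0.99, that of Ccl24 to Ccl22 was 4.06 to 7.53 and that of Ccl24 to Ccl17 was 3.22 to 6.69. Of 57 other named genes with a fit, 51 kept their direction throughout. Those that turned are given with their range over the libraries left out. They were Ccr3 (-0.48 without αGlu 3 to 0.54, and -0.11 with the block), Stat6 (-0.022 without αGlu 1 and -0.0071 without Ctr 3 to 0.051), Stat5a (-0.028 without αGlu 3 to 0.13), Stat5b (-0.037 without Ctr 3 and -0.0053 without αGlu 3 to 0.075), Ccl25 (-0.0026 without αGlu 2 to 0.32) and Ccl3 (-0.54 to 0.029 without αGlu 2). With library size alone, Stat6, Stat5a and Stat5b were at 0.10, 0.14 and 0.11. DESeq2 called 22 of the 57 and the fit without αGlu 1 called 28. Over all genes, DESeq2 called 3.93% lower and 4.23% higher, and the fit without αGlu 1 called 10.5% and 8.05%. Many of the 57 were picked by a small unadjusted p or by likeness to a member. These counts and the directions kept therefore follow in part from that choice.

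Same-numbered libraries deviated from their group means with correlations of 0.076, 0.065 and 0.15, against -0.11 to 0.046 for libraries with different numbers. Each same-numbered value was the higher, but all were small, so they do not settle whether the numbers pair the libraries. The main fit treated the libraries as unpaired. With the replicate number as a block, 17 genes were called, Ccl5 (6.54, adjusted p = 0.07) among them and no other named gene, and the log2 fold changes were -2.80 for Ccl22 (adjusted p = 0.114), -2.72 for Ccl17 (0.256) and 3.39 for Ccl24 (0.259). Under this pairing, the ratio differences stayed at 0.73, 5.46 and 4.74 with exact permutation p of 0.5, 0.25 and 0.25, where 0.25 is the smallest possible. Depth limits Ccl17 most, with at most 21 reads in a library.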
